A study of Homo sapiens with 12 samples.

Results

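Starved RPE-1 cells that were refed in the presence of dimethyl amiloride (DMA), an inhibitor of Na+/H+ exchange, were compared with starved cells that were not refed. RPE-1 is an established human cell line derived from retinal pigment epithelium. The comparison uses 6 of the 12 libraries of the series, 3 in each group, and every gene: 43481 genes had transcripts in the tables and 15263 passed the filter on low counts. All cells were kept without fetal calf serum (FCS) and glucose for 24 h. The starved group is titled as starved only, and its labels do not say when it was collected relative to the refed groups. In the DMA group, 100 µM DMA accompanied a 4 h refeeding with 10% FCS and glucose at 5 g/l. The group titled as refed with no inhibitor, also 3 libraries, is taken as the DMSO solvent control that the protocol names, and its values stand beside those of the DMA group. The medium of refeeding was RPMI. The labels do not say whether the starved cells were given DMSO, and starved cells given DMA are not analysed here. Effects of DMA that need no refeeding and effects on refeeding itself therefore cannot be told apart. Nor do the labels say whether the 3 libraries of a group came from separate cultures, so p-values measure only the spread between these libraries.

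Na+/H+ exchangers of the plasma membrane export protons in exchange for sodium and are activated by growth factors. Cells without glucose and growth factors slow translation and switch on the integrated stress response, in which the factor ATF4 induces genes of amino acid supply, and the unfolded protein response of the endoplasmic reticulum. Refeeding is known to shut these programmes down, to activate ERK and mTORC1 signalling, and to start ribosome production and the passage from G1 to S phase. The comparison asks which of these changes occur while Na+/H+ exchange is inhibited.

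Depth was 14910516 to 23950322 expected counts in the starved libraries. The DMA libraries held 20262061 to 22011436 and the solvent libraries 23472623 to 28968510. Levels are given as CPM, which sets each gene's counts against its library's total, scaled by the trimmed mean of M-values. The CPM values in this paragraph use the total without that scaling. In these unscaled units 3 counts amount to 0.105 to 0.203, a limit that covers counting error only. On principal components of all 12 libraries, the component with 31.1% of the variance separated the starved libraries from all refed ones. The component with 14.6% set the libraries numbered 3 apart, and solvent library 1 stood alone on the one with 13.4%. Some epithelial genes of the line were present. Across the 9 libraries KRT8 ranged from 209 to 553 CPM, KRT18 from 349 to 680 and PAX6 from 24.3 to 64.4. The epithelial genes EPCAM and CDH1 reached at most 0.0438 and 0.253 CPM. Of the genes that define differentiated pigment epithelium, RPE65 reached at most 0.169 CPM and TYR 0.0422 CPM, and TTR was at 0 in all 9 libraries. Other pigment epithelium markers were present, with MITF at 17.6 to 55.8 CPM and OTX2 at 6.83 to 22.4. BEST1 ranged from 0.632 to 3.9 CPM and LRAT from 1.23 to 3.31. The 24 markers of other cell types summed to 173.5 to 212.5 CPM in starved, 219.9 to 261.1 in solvent and 244.9 to 316.3 in DMA libraries, most of it THY1, CD68 and PDGFRB. KRT14 and MYOD1 were at 0 in all 9 libraries. The part of these sums in the results was not tested.

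Refeeding with DMA changed 4109 of 15263 genes (26.9%), 2126 higher (13.9%) and 1983 lower (13.0%). Stress response genes of the endoplasmic reticulum (HERPUD1 and DNAJB9) and the ATF4 targets DDIT3 and CHAC1 lay among the largest falls. Among the largest rises were ESM1, ANGPTL4 and ID3. Refeeding with solvent changed 3704 genes (24.3%), 1921 higher (12.6%) and 1783 lower (11.7%). These 2 comparisons share the starved libraries, so likeness between them is not a result. The test of DMA against solvent bears on the difference itself, because the starved level cancels, and it found 267 genes (1.75%), 112 higher with DMA (0.734%) and 155 lower (1.02%). Calls are edgeR quasi-likelihood tests at an adjusted p of 0.05, and all changes are on the log2 scale relative to the bulk of genes. Scaling to spike-in controls in place of the trimmed mean raised the median change of all genes in DMA against starved by 0.81 and called 6439 genes higher and 135 lower, so 98.0% of calls were higher against 51.7%. In bulk RNA, a change in RNA per cell and a change in the number of expressing cells cannot be told apart.

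**Figure D1:**
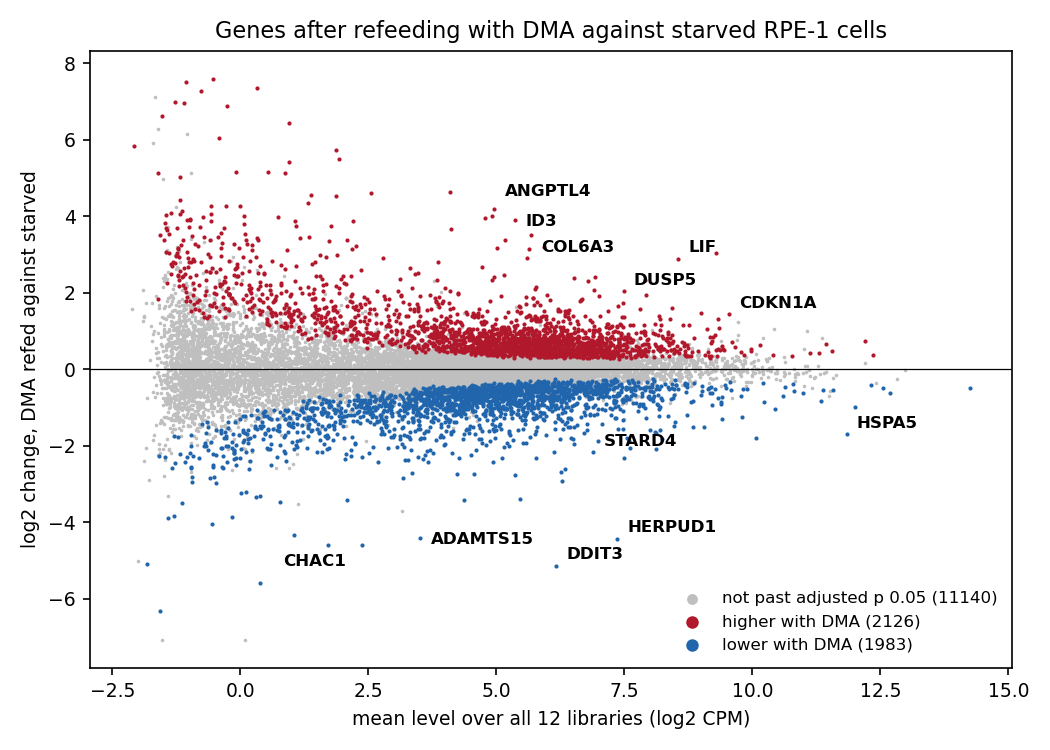
Log2 change of each gene in DMA refed against starved cells (vertical axis) against its mean level over all 12 libraries in log2 CPM (horizontal axis), for the 15249 genes with a symbol or identifier of their own; red and blue points passed an adjusted p of 0.05. The 2126 higher and 1983 lower genes lie about evenly around 0, with DDIT3 and HERPUD1 far below and ANGPTL4 and ID3 far above, all relative to the bulk of genes.

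The difference between DMA and solvent depended on single libraries. Without DMA library 2 the test called 1 gene in place of 267, without solvent library 1 it called 8, without solvent library 2 it called 30 and without DMA library 3 it called 119. Same-numbered libraries of these groups deviated together, and a fit with the library number as a replicate block called 1560 genes, 726 higher with DMA (4.76%) and 834 lower (5.46%). The block fit called 471 genes without solvent library 1 and 432 without DMA library 2. The blocked value is therefore given beside many of the counts that it moves. Where no blocked value is given, the count may still move with the block. Of 33 named genes past the threshold here, DUSP5 alone stayed past it without any 1 library, and 32 stayed past it with the block. DMA against starved gave 3009 to 3480 genes when 1 library was left out, and with the block 2935 were higher (19.2%) and 2979 lower (19.5%).

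Genes of the stress response to missing amino acids fell with DMA present. Among ATF4 target genes, 25 of 31 tested members fell and 1 rose, with a median change of -1.02, against a median of 0.0032 over all genes. With solvent 28 fell and 1 rose, with a median of -1.26. DDIT3, the stress-induced transcription factor CHOP (chromosome 12, 57516588 to 57521737 on GRCh38), measured 227, 264 and 311 CPM in starved libraries 1 to 3, 4.97, 9.29 and 8.46 with DMA and 4.39, 7.12 and 6.20 with solvent. Every refed library lay far below every starved library, and the DMA and solvent libraries overlapped. DDIT3 fell by 5.14 ± 0.31 (log2 change, SE, adjusted p = 1.5e-06) with DMA, and is uncertain owing to exon overlap (39.6%) with other genes, MARS1 among them. CHAC1, which degrades glutathione and is induced by ATF4, went from 23.0, 13.3 and 14.2 CPM to 0.653, 0.491 and 0.950 with DMA and 0.632, 0.708 and 1.66 with solvent, a fall of 4.59 with DMA. TRIB3, a pseudokinase that restrains AKT, fell by 2.92 from 291, 162 and 173 to 16.5, 23.2 and 43.0 CPM. Both genes had no overlap between starved and DMA libraries.

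Enzymes of the ATF4 list that make serine, one-carbon units or cysteine fell by unequal amounts. The log2 change was -2.06 for MTHFD2 (mitochondrial one-carbon metabolism), -2.702 for CTH (cysteine synthesis), -0.76 for PSAT1 (serine synthesis) and -0.42 for PHGDH, the entry enzyme of that pathway. ASNS, asparagine synthetase, went from 274, 209 and 193 CPM to 169.5, 165 and 153, a fall of 0.47 (adjusted p = 0.034, but adjusted p = 0.05 to 0.16 without starved library 1 or DMA library 1, 2 or 3), and is uncertain owing to exon overlap (44.6%) with another gene. It measured 0.36 with spike-in scaling, and -0.31 without starved library 1. ATF5, a transcription factor of the same family, was the member that rose: from 25.8, 27.2 and 25.1 CPM to 65.9, 62.8 and 78.0 with DMA, by 1.40 (adjusted p = 0.00014), and to 34.4, 40.6 and 60.7 with solvent. ATF5 is uncertain owing to exon overlap (23.7%) with other genes, among them NUP62. SESN2, a leucine sensor that restrains mTORC1, measured 141, 111 and 112 CPM starved, 59.5, 60.0 and 62.9 with DMA and 15.3, 26.0 and 41.4 with solvent. Its DMA libraries lay between those of the starved and the solvent group without overlap. SESN2 fell by 0.99 with DMA (adjusted p = 0.056 to 0.08 without starved library 1 or DMA library 1, 2 or 3), and the DMA minus solvent difference of 1.14 did not pass (adjusted p = 0.071), though it did with the block (adjusted p = 0.031).

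No ATF4 target differed between DMA and solvent in the main test, where the background was 1.75%. With the replicate block 2 were higher and 1 lower with DMA, near the backgrounds of 4.76% and 5.46%. The median difference over the list was 0.15, and for 22 of 31 members the 95% interval of the difference, not adjusted for the number of genes, lay within -1 to 1. Over all genes tested the same held for 65.9%. For CHAC1 the interval of the difference was -1.51 to 0.51 and for TRIB3 -1.02 to 1.04, so differences inside these bounds are not resolved by 3 libraries a group. At an unadjusted p under 0.05 edgeR gave 3 members, and DESeq2 with adjustment called 2 higher and 1 lower.

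Genes of protein folding in the endoplasmic reticulum fell with them. Of 24 members, 22 fell and 0 rose with DMA (median -0.98), and 20 fell with solvent (median -1.05). HERPUD1, which helps dispose of misfolded proteins (chromosome 16, 56932048 to 56944863), measured 690.0, 500.0 and 513 CPM starved and 24.1, 27.7 and 27.2 with DMA, beside 26.0, 29.2 and 28.0 with solvent. The 3 DMA values lay close to each other and among or just below those of the solvent group. HERPUD1 fell by 4.43 ± 0.16 (adjusted p = 3.6e-09), and its DMA minus solvent difference was -0.07 (95% interval -0.38 to 0.23). HSPA5, the main chaperone of this compartment, also called BiP (chromosome 9, 125234853 to 125241330), went from 9593, 5365 and 7341 CPM to 1819.7, 1889.5 and 3198 with DMA and 2188, 1590.2 and 3197 with solvent. Its fall of 1.69 (adjusted p = 0.004) left a wide interval for the difference from solvent, -0.75 to 0.73. DNAJB9, a cochaperone of HSPA5, fell by 2.78, from 145, 101 and 117 to 10.9, 23.3 and 18.8 CPM.

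Stress sensors and their effectors were among the members that fell: XBP1, whose spliced form induces chaperones (-2.62), ERN1, the sensor IRE1 (-1.69), and EIF2AK3, the sensor PERK (-1.72). ATF6, the remaining sensor, measured 0.10 and did not pass. PDIA6, a disulfide isomerase, was the other member that did not pass (-0.34). For 21 of 24 members the interval of the DMA minus solvent difference lay within -1 to 1. None differed in the main test (background 1.75%), with 1 higher under the replicate block (background of higher calls 4.76%). Both counts lie near the background. At an unadjusted p under 0.05 edgeR gave 4 members, and DESeq2 with adjustment called 0 higher and 0 lower. Leaving out DMA library 2 left 14 falls in the list. Scaled to spike-ins the list medians of the ATF4 targets and the reticulum genes were -0.20 and -0.18, still below 0 while the median gene was at 0.81.

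The promoters of these genes were searched for known stress elements in the 250 bases before to 50 bases after each RefSeq start (build GRCh38.p14, both strands). The core of the amino acid response element bound by ATF4, written TGATGNAA, was in 7 of 26 ATF4 target promoters (26.9%) and in 3.67% of all 27305 promoters. The endoplasmic reticulum stress element was in 6 of 23 promoters of the reticulum list (26.1%) and in 0.0806% of all. Among the 11346 promoters of genes tested the shares were 1.77% for the ATF4 core and 0.123% for the stress element. These lists are partly known from such elements, and a match is a description of the letters only. Windows around the match are shown for 3 genes with large falls, 5′ to 3′ on the gene's strand, with the match in capitals. In HERPUD1 and CHAC1 the capitals are the reverse complement of the ATF4 core, starting at -176 and -209 from the RefSeq start, and in HSPA5 they are the stress element, starting at -66.
HERPUD1 (chr16:56931936-56932003, plus strand): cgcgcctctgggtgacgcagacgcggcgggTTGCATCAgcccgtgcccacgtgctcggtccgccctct
CHAC1 (chr15:40953232-40953299, plus strand): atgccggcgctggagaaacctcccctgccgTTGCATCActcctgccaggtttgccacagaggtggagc
HSPA5 (chr9:125241361-125241439, minus strand): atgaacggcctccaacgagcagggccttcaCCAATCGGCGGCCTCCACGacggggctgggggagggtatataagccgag

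Amino acid importers went down with the ATF4 targets, some of which they are. Of 17 transporters tested 11 fell and 2 rose with DMA (median -0.88), and 10 fell and 2 rose with solvent (median -0.91). With spike-in scaling the median with DMA was -0.02. SLC1A4, a neutral amino acid carrier, fell by 1.87 from 80.2, 56.4 and 44.0 to 10.4, 16.0 and 22.8 CPM, and SLC43A1, a carrier of large neutral amino acids, by 1.79. SLC36A1, which exports amino acids from lysosomes together with protons, rose by 1.40 from 10.7, 7.61 and 10.54 to 31.4, 24.4 and 20.4 CPM, against 25.9, 23.7 and 23.1 with solvent. SLC7A6, the other riser (1.05), is uncertain owing to exon overlap (55.6%) with other genes, SLC7A6OS among them. None of the 17 differed between DMA and solvent (background 1.75%), with 1 lower under the replicate block (background of lower calls 5.46%). Counts this small lie near the background. At an unadjusted p under 0.05 edgeR gave 2 members, and DESeq2 with adjustment called 0 higher and 1 lower.

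Genes of resting cells fell with DMA: among FOXO targets and quiescence genes 14 of 24 fell and 1 rose (median -0.63, 0.16 with spike-in scaling, where the sign turns), and 14 fell with solvent (median -0.65). Rises numbered 2 without DMA library 1, and falls numbered 8 without starved library 2 or 3 and 9 without DMA library 1. KLHL24, a substrate adaptor of ubiquitin ligases, measured 50.7, 68.2 and 68.6 CPM starved, 6.93, 21.0 and 15.3 with DMA and 5.23, 9.16 and 6.33 with solvent. It fell by 2.11 (adjusted p = 0.0011); DMA libraries 2 and 3 were above every solvent library and DMA library 1 was not, and the difference of 1.07 did not pass (adjusted p = 0.13). YPEL2, a zinc-binding protein of the yippee family, fell by 2.06 from 13.6, 12.8 and 15.4 to 4.02, 3.75 and 2.23 CPM. CDKN1B, the kinase inhibitor p27 that marks resting cells, fell by 0.73 from 65.6, 75.8 and 106 to 42.1, 59.8 and 47.2 CPM (0.07 with spike-in scaling; adjusted p = 0.055 without starved library 3). TOB1, an antiproliferative protein, rose by 0.67.

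Among genes that restrain mTORC1, 5 of 19 fell and 1 rose with DMA (median -0.33; 0.45 with spike-in scaling; 8 falls with the block), a share near the background. DDIT4, the hypoxia- and stress-induced inhibitor REDD1, fell by 3.39 from 175, 149 and 80.4 to 10.6, 13.7 and 14.2 CPM, beside 8.60, 14.5 and 12.6 with solvent, and is uncertain owing to exon overlap (41.2%) with DDIT4-AS1. SESN1 was the riser, from 23.8, 18.2 and 19.9 to 66.5, 63.4 and 71.6 CPM (1.70, adjusted p = 0.00021), with 29.9, 32.0 and 51.3 with solvent. In lysosome and autophagy genes 8 of 30 fell and 3 rose (median -0.16; 0.67 with spike-in scaling). Rises numbered 0 without starved library 1 or DMA library 3 and 1 without starved library 2 or 3, and falls numbered 4 without starved library 2 or DMA library 1. WIPI1, which acts early in autophagosome formation, fell by 1.94 and is uncertain owing to exon overlap (28.1%) with ARSG, and ATG14, a subunit of the autophagy lipid kinase, fell by 1.30. TFEB, the factor that drives lysosomal genes, measured 4.66, 4.43 and 3.99 CPM starved and 6.32, 6.88 and 11.4 with DMA, a rise of 0.91 (0.58 without DMA library 3; adjusted p = 0.076 to 0.19 without starved library 1, 2 or 3 or DMA library 3).

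Sterol synthesis genes fell as well. With DMA 16 of 30 genes of sterol and fatty acid synthesis fell and 0 rose (median -0.62), and 18 fell with solvent (median -0.62); scaled to spike-ins the median with DMA was 0.21, of the opposite sign. Rises numbered 1 without DMA library 3. STARD4, a cholesterol carrier, measured 303, 237 and 246 CPM starved, 47.4, 62.3 and 65.0 with DMA and 77.3, 67.3 and 56.6 with solvent. HMGCS1, an early enzyme of the mevalonate pathway, measured 405, 350.4 and 430.0 starved, 94.5, 121 and 106 with DMA and 154, 139 and 112 with solvent. Starved and refed libraries did not overlap for either gene, and the changes with DMA were -2.17 and -1.88 (adjusted p = 4.3e-06 and 4.3e-06). The feedback regulator INSIG1 fell by 1.83. Fatty acid synthesis enzymes in the list, namely FASN (-0.25), ACACA (-0.27) and ACLY (0.08), did not pass, while the desaturase SCD fell by 1.04. No member differed between DMA and solvent (median -0.03, background of calls 1.75%), and 27 of 30 had an interval within -1 to 1. Under the replicate block 2 were lower, near the background of lower calls of 5.46%. At an unadjusted p under 0.05 edgeR gave 6 members, and DESeq2 with adjustment called 0 higher and 2 lower.

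**Figure D2:**
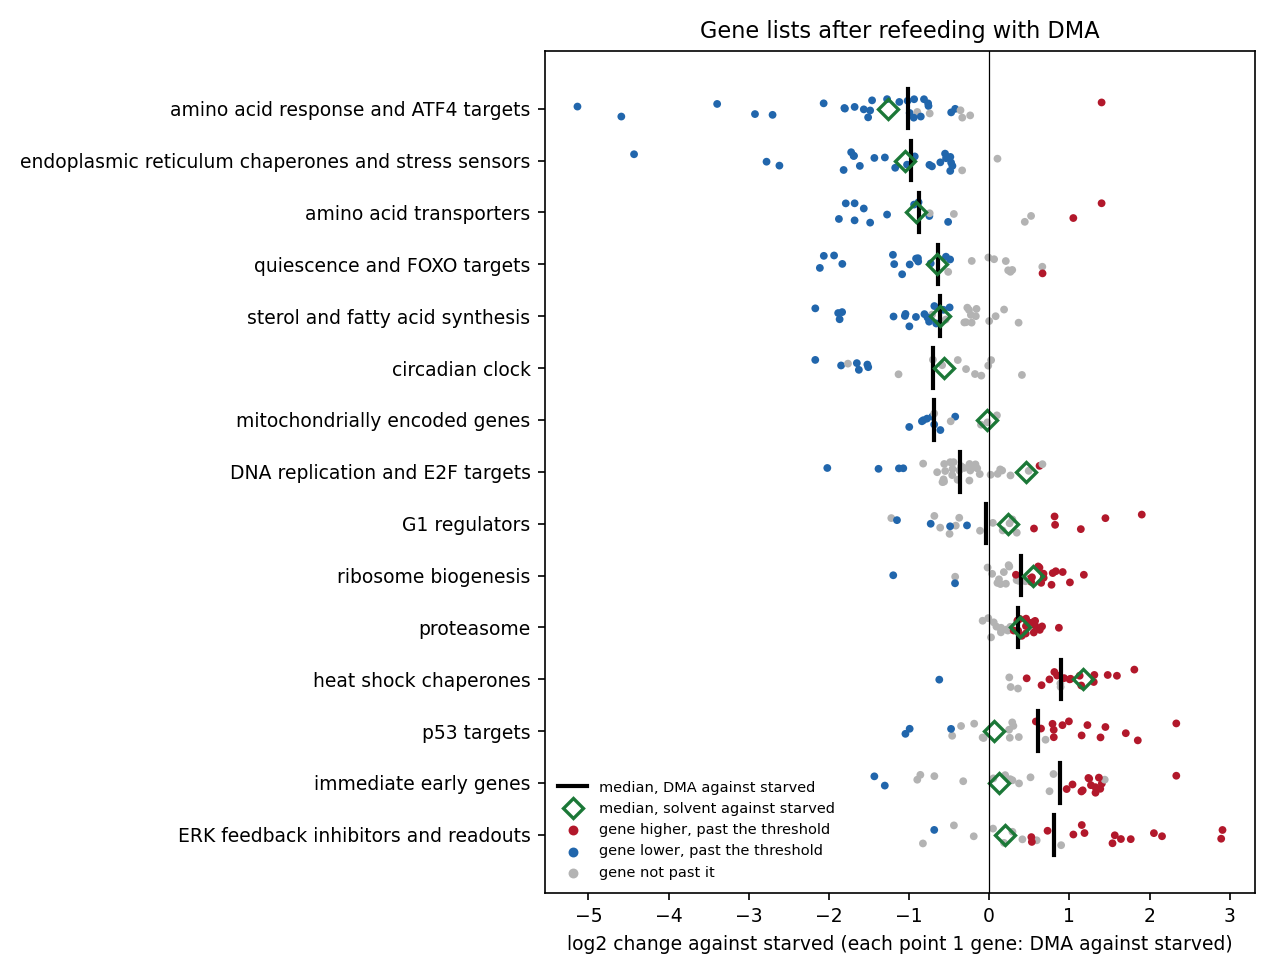
Log2 change against starved cells for the tested members of 15 gene lists; each point is 1 gene in DMA against starved, red or blue past an adjusted p of 0.05, black bars are list medians with DMA and green diamonds list medians with solvent. The medians with DMA and solvent are close for ATF4 targets (-1.02 and -1.26) and apart for immediate early genes (0.88 and 0.13), all relative to the bulk of genes; with spike-in scaling the medians of the sterol, quiescence, clock, mitochondrial and DNA replication lists with DMA lie above 0.

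Cytosolic chaperones and the proteasome rose with DMA. Of 21 heat shock chaperones 15 rose and 1 fell (median 0.89), and with solvent 17 rose and 1 fell (median 1.17). HSPA4L, a chaperone of the HSP110 family, went from 26.5, 24.7 and 21.3 CPM to 86.9, 104 and 63.7 with DMA and 69.7, 71.1 and 64.3 with solvent, a rise of 1.81 (adjusted p = 3.2e-05). BAG3, a cochaperone of HSP70, rose by 1.59 from 117, 138 and 146 to 244, 478 and 487 CPM. The mitochondrial HSP70 HSPA9 fell by 0.62 (0.21 with spike-in scaling). HSP90AA1, the inducible HSP90, measured 1066, 1275 and 1411 CPM starved, 2030.1, 2295 and 1574 with DMA and 4341, 4147 and 2879.7 with solvent. Its DMA libraries lay above the starved and below the solvent libraries without overlap. HSP90AA1 rose by 0.65 with DMA (adjusted p = 0.057 to 0.092 without starved library 1 or 2 or DMA library 1 or 2) and by 1.5997 with solvent, and the difference of -0.95 passed (adjusted p = 0.03; adjusted p = 0.08 to 0.13 without solvent library 1 or 2 or DMA library 2 or 3). It is uncertain, as 25.6% of its 31-base stretches are found elsewhere. It was the member of the list that differed, also under the replicate block.

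Of 29 proteasome genes 16 rose and 0 fell with DMA (median 0.35), and 19 rose with solvent (median 0.38). PSMD12, a subunit of the regulatory lid, rose by 0.87 from 59.4, 49.1 and 70.3 to 98.8, 111 and 116 CPM, and PSMC2, an ATPase of the base, by 0.66. For all 29 the interval of the DMA minus solvent difference lay within -1 to 1, and none differed, with or without the replicate block. The background of calls was 1.75% without the block, and 4.76% higher and 5.46% lower with it. At an unadjusted p under 0.05 edgeR gave 2 members, and DESeq2 with adjustment called 0 higher and 0 lower. With 1 library left out 9 to 18 rose, with 9 without starved library 1, 10 without starved library 2 and 10 without DMA library 3.

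Many ribosome assembly genes rose with DMA. Of 32 genes 15 rose and 2 fell (median 0.40), against 24 and 1 with solvent (median 0.55); a test of these counts against each other was not made. Falls numbered 1 without starved library 1 or 3 or DMA library 2. LYAR, a nucleolar zinc finger protein, measured 15.4, 14.5 and 13.0 CPM starved, 33.8, 30.3 and 33.4 with DMA and 37.6, 32.9 and 29.9 with solvent, and rose by 1.18 (adjusted p = 8.2e-05). NOP16, a nucleolar assembly factor, rose by 1.01, and NOB1, which cleaves the precursor of small-subunit ribosomal RNA, fell by 1.20 and is uncertain through 20.2% exon overlap. GNL3, the GTPase nucleostemin (chromosome 3, 52681156 to 52694492), measured 128, 124 and 132 CPM starved, 104, 86.5 and 94.6 with DMA and 187, 155 and 150.1 with solvent. All DMA libraries were below and all solvent libraries above the starved ones. GNL3 fell by 0.43 with DMA (0.37 with spike-in scaling; adjusted p = 0.019; adjusted p = 0.051 to 0.081 without starved library 1 or 3 or DMA library 2) and rose by 0.36 with solvent (adjusted p = 0.044). The difference was -0.79 (95% interval -1.05 to -0.52; adjusted p = 0.015; adjusted p = 0.063 to 0.076 without solvent library 1 or DMA library 2). NOP56, a core protein of ribosomal RNA methylation complexes, measured 149.6, 146 and 159 starved, 181, 166 and 148 with DMA and 280.1, 242 and 213 with solvent. It was not called with DMA (0.12, adjusted p = 0.49) and rose with solvent (0.69), with a difference of -0.57 (adjusted p = 0.035; adjusted p = 0.084 to 0.15 without solvent library 1 or 2 or DMA library 2 or 3). These 2 were the members that differed, with and without the block.

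Translation factors split: with DMA 4 of 21 rose and 6 fell (median 0.03; 7 and 8 with the block), and with solvent 8 rose and 7 fell. EIF4E, the cap-binding protein, rose by 0.68 from 66.5, 64.8 and 74.7 to 118, 113 and 98.2 CPM, and EIF4EBP2, its inhibitor, by 0.69. EEF2K, the kinase that halts elongation, went from 41.1, 45.3 and 37.6 to 21.7, 21.3 and 18.3 CPM with DMA and 45.5, 37.4 and 27.6 with solvent, with DMA libraries below all others. It fell by 1.02 with DMA and the difference from solvent was -0.85 (adjusted p = 0.037; adjusted p = 0.051 to 0.17 without solvent library 1 or 2 or DMA library 1, 2 or 3). EIF5B, which joins the ribosomal subunits, was higher with solvent than with DMA, with a difference of -0.51 (adjusted p = 0.044; adjusted p = 0.062 to 0.17 without solvent library 1 or 2 or DMA library 1, 2 or 3). Under the replicate block 5 of the 21 were lower with DMA than with solvent (background of lower calls 5.46%).

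In nucleotide synthesis 1 of 25 genes rose and 4 fell with DMA (median -0.10), a share under the background of 26.9%. The median was 0.69 with spike-in scaling, and 3 rose and 8 fell with the replicate block. With solvent 4 rose and 3 fell (median 0.25). Rises numbered 2 without starved library 1 or DMA library 2. UMPS, which completes pyrimidine synthesis, rose from 29.9, 26.0 and 27.0 to 55.2, 50.7 and 52.1 CPM (0.93), beside 64.4, 51.5 and 58.3 with solvent. ATIC, the last enzyme of purine synthesis to IMP, measured 144, 150.5 and 159.6 starved, 117, 108 and 126 with DMA and 187, 162 and 155 with solvent. It fell by 0.37 with DMA (0.43 with spike-in scaling; adjusted p = 0.058 to 0.095 without starved library 2 or 3 or DMA library 2), and differed from solvent by -0.52 (adjusted p = 0.035; adjusted p = 0.053 to 0.15 without solvent library 1 or 2 or DMA library 1, 2 or 3). The median difference of the list was -0.28, beside 0.0071 over all genes; with spike-in scaling it was -0.03 beside 0.22. ATIC was the member that differed, and 4 members were lower with DMA under the block (background of lower calls 5.46%).

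Glucose genes responded in both directions. With DMA 11 of 26 glycolysis and uptake genes rose and 6 fell (median 0.32), and with solvent 9 rose and 2 fell (median 0.27). Rises numbered 5 without starved library 1. LDHA, which makes lactate, measured 303, 359.9 and 314 CPM starved, 697, 550.4 and 504 with DMA and 1040.4, 784 and 689.7 with solvent, and rose by 0.84 (adjusted p = 0.0037). DMA library 1 overlapped the solvent libraries, and the difference of -0.52 did not pass (adjusted p = 0.13), but did with the block (adjusted p = 0.019). SLC2A1, the glucose transporter GLUT1, fell by 1.67 from 366, 560.2 and 629.8 to 198, 166 and 124 CPM, beside 198, 261 and 198 with solvent. HKDC1, a hexokinase domain protein, went from 11.9, 7.53 and 6.13 to 2.06, 2.32 and 4.09 CPM with DMA and 6.92, 6.95 and 8.20 with solvent. It fell by 1.601 with DMA (adjusted p = 0.0016), and was the member of the list that differed from solvent (-1.38, adjusted p = 0.035; adjusted p = 0.068 to 0.15 without solvent library 1, 2 or 3 or DMA library 1 or 2). Under the replicate block 1 was higher and 3 lower with DMA (backgrounds 4.76% and 5.46%).

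TXNIP, which restrains glucose uptake and is induced by the glucose sensor MondoA, measured 8.27, 7.49 and 9.47 CPM starved, 21.3, 21.1 and 65.4 with DMA and 36.6, 25.9 and 80.7 with solvent, highest in library 3 of both refed groups. It rose by 2.10 with DMA (adjusted p = 0.023; adjusted p = 0.056 to 0.12 without starved library 1, 2 or 3 or DMA library 3, with a change of 1.32 without DMA library 3). Of 9 MondoA and ChREBP genes 3 rose and 3 fell. Rises numbered 1 without starved library 1. Of 18 PPAR targets and fatty acid oxidation genes 3 rose and 1 fell, a share under the background of 26.9%, and 4 rose and 3 fell with the block. Hypoxia-inducible targets fell more often than they rose, with 9 of 20 lower and 2 higher (median -0.54, 0.26 with spike-in scaling), and 7 lower and 2 higher with solvent. Rises numbered 0 without starved library 1 or 3 or DMA library 2 and 1 without starved library 2 or DMA library 3. NDRG1, a stress-induced protein of that list, fell by 1.42. Of 24 NRF2 targets 4 fell and 1 rose, a share under the background of 26.9%, and 5 fell and 4 rose with the block. HMOX1, heme oxygenase, fell by 2.33 from 157, 98.4 and 291 to 23.7, 35.5 and 49.4 CPM, and GCLC, which starts glutathione synthesis, by 1.70. Rises of NRF2 targets numbered 0 without starved library 1 or 2 or DMA library 3 and 2 without starved library 3, and falls of NRF2 targets numbered 2 without starved library 1 or DMA library 1. With DMA the GCLC libraries (13.9, 15.9 and 25.8 CPM) were below all solvent libraries (29.3, 28.0 and 45.2), and the difference of -0.88 passed with the block (adjusted p = 0.0043), not without it (adjusted p = 0.2).

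ERK-induced genes were higher after refeeding with DMA. Of 24 feedback inhibitors and readouts of ERK signalling 14 rose and 1 fell (median 0.81), while with solvent 7 rose and 4 fell (median 0.19). The test of DMA against solvent called 6 higher (background of higher calls 0.734%) and 0 lower, and with the replicate block 17 higher, where the background was 4.76%. In the fit without the block the 6 became 1 without DMA library 2 or solvent library 1 or 2. DUSP5, a nuclear phosphatase that inactivates ERK (chromosome 10, 110497838 to 110511544), measured 91.5, 94.4 and 90.4 CPM starved and 102, 106 and 119 with solvent, against 346, 419.9 and 382 with DMA. Starved and solvent libraries lay close together, and every DMA library was far above them. DUSP5 rose by 2.05 ± 0.14 with DMA (adjusted p = 1.5e-06), measured 0.25 with solvent (adjusted p = 0.2), and differed by 1.81 (95% interval 1.51 to 2.10; adjusted p = 6.6e-05). This difference stayed past the threshold without any 1 of the 6 libraries.

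SPRY4, an inhibitor of receptor signalling to ERK, measured 12.5, 15.02 and 14.3 CPM starved, 27.3, 39.2 and 47.4 with solvent and 82.4, 127 and 105 with DMA, in 3 groups without overlap. SPRY4 rose by 2.91 with DMA and by 1.44 with solvent, with a difference of 1.47 (adjusted p = 0.015; adjusted p = 0.052 to 0.076 without solvent library 1 or 2 or DMA library 2). SPRY1 of the same family went from 5.19, 6.48 and 9.47 starved and 8.46, 7.91 and 8.92 with solvent to 16.1, 25.1 and 21.0 CPM, a difference from solvent of 1.30 (adjusted p = 0.02; adjusted p = 0.05 to 0.12 without solvent library 1 or 2 or DMA library 2 or 3). The other members that differed were the ERK phosphatase DUSP7 (0.86), the Ras pathway inhibitor SPRED2 (0.51) and the receptor EPHA2 (1.03). LIF, a cytokine of the interleukin-6 family, measured 80.3, 82.3 and 74.0 CPM starved, 626, 566 and 567 with DMA and 348, 453 and 504 with solvent. It rose by 2.89 with DMA (adjusted p = 1.3e-07), and the difference of 0.43 did not pass (adjusted p = 0.1; 0.041 with the block). ETV5, an ERK-responsive transcription factor, fell by 0.69 with DMA (0.15 with spike-in scaling) and by 1.11 with solvent.

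Among immediate early genes 13 of 28 rose and 2 fell with DMA (median 0.88; 5 falls with the block), and 7 rose and 5 fell with solvent (median 0.13). In DMA against solvent 2 were higher (background of higher calls 0.734%), and 15 with the replicate block (background 4.76%). In either fit 0 were lower. Without the block the 2 became 0 without DMA library 2 or solvent library 1 or 2 and 1 without DMA library 3. BTG2, an antiproliferative early gene that p53 also induces, measured 11.2, 9.96 and 5.84 CPM starved, 16.6, 22.7 and 20.9 with solvent and 46.8, 49.5 and 41.1 with DMA. Its 3 groups did not overlap, and DMA exceeded solvent by 1.19 (adjusted p = 0.023; adjusted p = 0.057 to 0.12 without solvent library 1 or 2 or DMA library 2). KLF6, a zinc finger factor, measured 64.9, 112 and 87.2 CPM starved, 122, 89.1 and 100.1 with solvent and 188, 173 and 182 with DMA, with a difference from solvent of 0.80 (adjusted p = 0.035; adjusted p = 0.061 to 0.13 without solvent library 1, 2 or 3 or DMA library 1, 2 or 3). FOSL1, an AP-1 subunit, rose by 1.41 from 161, 160.2 and 154 to 463, 357 and 439.8 CPM. JUND and KLF4 fell, by 1.30 and 1.43.

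EGR1, an early serum response gene, measured 10.998, 8.70 and 27.2 CPM starved, 11.8, 17.1 and 18.9 with solvent and 23.8, 32.0 and 47.1 with DMA, so that starved library 3 lay above every solvent library and above DMA library 1. EGR1 rose by 1.15 with DMA (adjusted p = 0.041; adjusted p = 0.07 to 0.16 without starved library 1 or 2 or DMA library 2 or 3; 1.80 without starved library 3), and its difference from solvent passed with the block only (adjusted p = 0.14 without and 0.018 with it). FOS, its AP-1 counterpart, measured 6.82, 5.10 and 9.55 starved, 1.65, 2.96 and 1.32 with solvent and 2.71, 4.87 and 4.18 with DMA. The change of -0.86 with DMA did not pass (adjusted p = 0.078; 0.03 with the block), and with solvent FOS fell by 1.85. MYC measured 141, 205 and 109 CPM starved and 112, 89.3 and 82.5 with DMA, a change of -0.68 that did not pass (adjusted p = 0.068; 0.01 with the block).

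**Figure D3:**
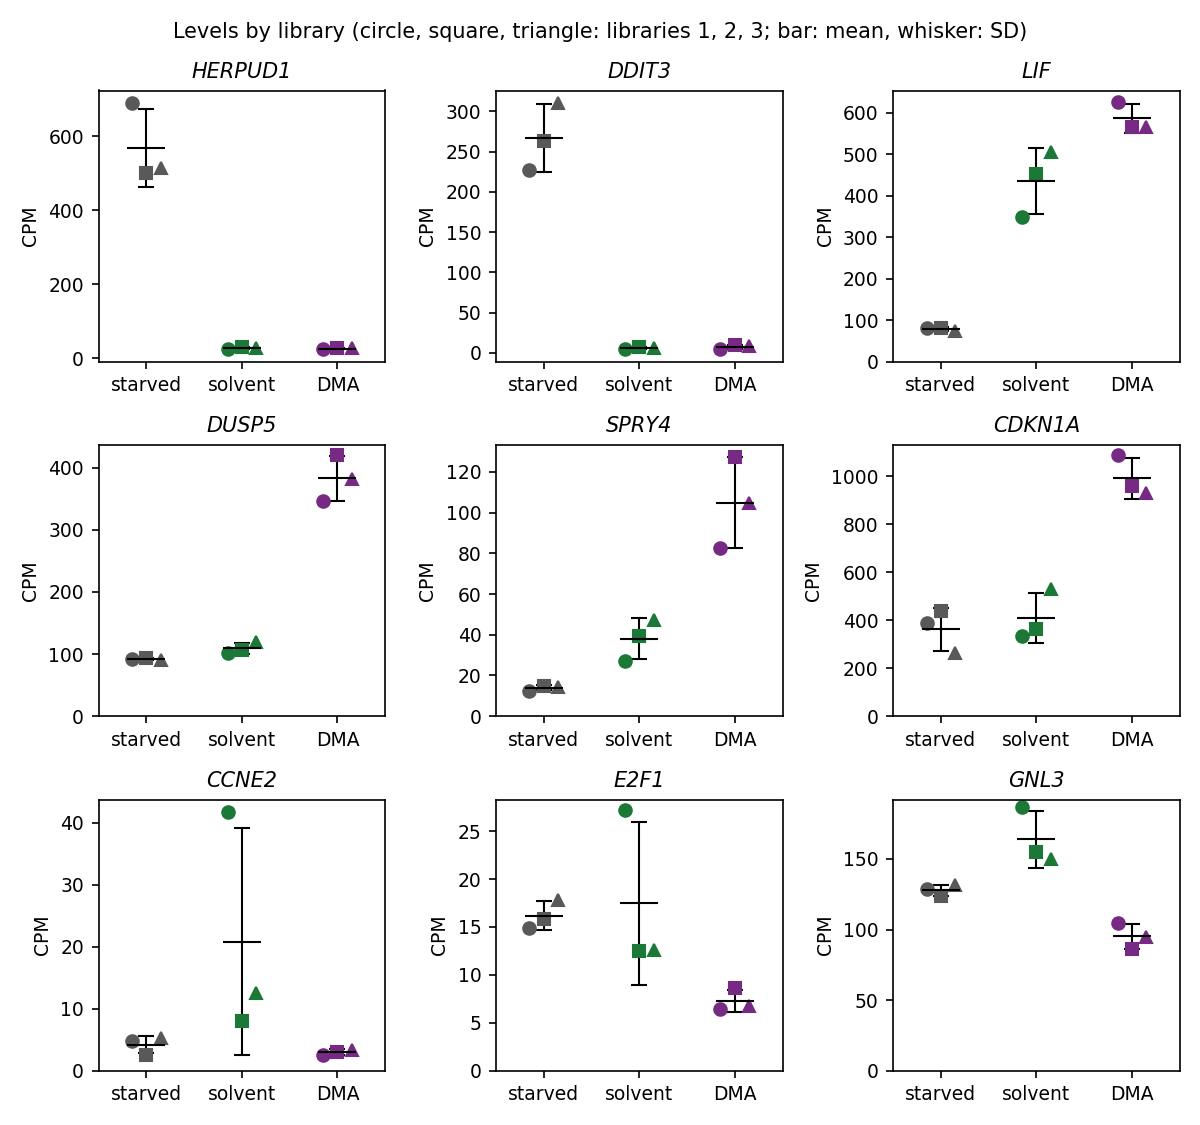
CPM of 9 genes (vertical axes, each from 0) in the 3 libraries of the starved, solvent and DMA groups; bars are means and whiskers SD (n = 3). HERPUD1 and DDIT3 lie near 0 in both refed groups, DUSP5 and CDKN1A are higher with DMA than in the starved and solvent libraries, and CCNE2 and E2F1 are highest in solvent library 1.

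Targets of the tumour suppressor p53 were also higher with DMA. Of 28 members 14 rose and 3 fell (median 0.61), while with solvent 5 rose and 5 fell (median 0.06). DMA exceeded solvent in 5 (background of higher calls 0.734%), or in 14 with the replicate block (background 4.76%). Without the block the 5 became 0 without DMA library 2 or solvent library 1 or 2 and 8 without solvent library 3. Falls numbered 1 without starved library 1 or DMA library 1. CDKN1A, the kinase inhibitor p21 (chromosome 6, 36676460 to 36687339), measured 387, 438 and 263 CPM starved, 335, 364 and 528 with solvent and 1088, 957 and 929 with DMA. Starved and solvent libraries overlapped, and all DMA libraries were above them. CDKN1A rose by 1.45 ± 0.22 with DMA (adjusted p = 0.00051), measured 0.17 with solvent (adjusted p = 0.6), and the difference was 1.28 (95% interval 0.81 to 1.74; adjusted p = 0.018; adjusted p = 0.058 to 0.089 without solvent library 1 or 2 or DMA library 2). The other members that differed besides BTG2 were the nuclease AEN (0.96), the kinase PLK3 (0.95) and the death receptor TNFRSF10B (0.95). MDM2, which degrades p53, rose by 1.15 with DMA and 0.79 with solvent. CCNG1, by contrast, fell by 1.04 from 426, 424 and 477 to 168, 237 and 238 CPM. TIGAR, which lowers glycolytic flux, rose by 1.85 and is uncertain through 45.6% exon overlap.

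The G1 to S programme showed few rises with DMA, and its contrast with solvent rested largely on solvent library 1. Of 34 DNA replication genes and E2F targets 1 rose and 4 fell with DMA, shares under the backgrounds of 13.9% and 13.0%. The median was -0.36, or 0.45 with spike-in scaling. With the block 2 rose and 5 fell. With solvent 6 rose and 1 fell (median 0.46). Relative to the starved mean, the median member lay at -0.32, -0.33 and -0.37 log2 units in DMA libraries 1 to 3, at 1.03, -0.03 and 0.15 in the solvent libraries and at -0.13, 0.10 and 0.03 in the starved libraries. The DMA libraries were thus below all others, and solvent library 1 was far above solvent libraries 2 and 3. The median DMA minus solvent difference was -0.71, and -0.36 without solvent library 1. Members called lower numbered 2 (background 1.02%), 8 with the replicate block (background 5.46%) and 3 with the block and no solvent library 1. Without the block the 2 became 0 without DMA library 1, 2 or 3 or solvent library 1. Falls with DMA against starved numbered 2 without starved library 3 or DMA library 1, 2 or 3. For 11 of 34 members the interval of the difference lay within -1 to 1.

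E2F1, the transcription factor that drives this programme (chromosome 20, 33675683 to 33686404), measured 14.9, 15.8 and 17.8 CPM starved, 6.47, 8.58 and 6.75 with DMA and 27.2, 12.5 and 12.6 with solvent. All DMA libraries were below all starved and solvent libraries. E2F1 fell by 1.15 ± 0.27 with DMA (adjusted p = 0.0075), and its difference from solvent of -1.26 (adjusted p = 0.037; adjusted p = 0.055 to 0.12 without solvent library 1 or 2 or DMA library 1, 2 or 3) was -0.79 without solvent library 1. CDT1, a licensing factor of replication origins, fell by 2.02 from 17.4, 21.8 and 12.5 to 4.72, 3.53 and 4.51 CPM and by 1.27 with solvent. PCNA, the sliding clamp, rose by 0.63 with DMA, from 54.4, 52.4 and 56.3 to 89.998, 80.6 and 81.5 CPM, beside 166, 105 and 124 with solvent. CLSPN, a checkpoint adaptor, measured 6.60, 9.50 and 6.84 starved, 6.98, 4.65 and 4.80 with DMA and 34.6, 10.0 and 11.9 with solvent, a difference of -1.79 (adjusted p = 0.043; adjusted p = 0.052 to 0.17 without solvent library 1 or DMA library 1, 2 or 3) that was -1.002 without solvent library 1. WDR76, a DNA damage protein, likewise differed by -1.86 (adjusted p = 0.039; adjusted p = 0.063 to 0.15 without solvent library 1 or DMA library 1, 2 or 3), or -0.98 without that library.

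Among 22 G1 regulators 6 rose and 4 fell with DMA (6 and 7 with the block), and 8 rose and 4 fell with solvent. Against solvent CDKN1A was higher with DMA and CCNE2, E2F1 and E2F2 were lower. With the block 3 were higher and 7 lower (backgrounds 4.76% and 5.46%). Without the block the 3 lower genes became 0 without DMA library 1, 2 or 3 or solvent library 1, and the 1 higher gene 0 without DMA library 2 or solvent library 1 or 2 and 2 without DMA library 1. Rises with DMA against starved numbered 3 without starved library 2, and falls with DMA against starved numbered 2 without starved library 2. CCND3, a D-type cyclin, measured 15.002, 19.5 and 15.5 CPM starved, 66.6, 62.9 and 57.8 with DMA and 48.2, 44.8 and 46.7 with solvent, and rose by 1.90 (adjusted p = 1.5e-06). CCND1, the D-type cyclin most tied to growth factors, measured 1004, 620.0 and 791 starved, 1267, 721 and 726 with DMA and 1576, 1185 and 1299 with solvent, and did not pass with DMA (0.17, adjusted p = 0.7). CDC25A, a phosphatase that removes the inhibitory mark from cell cycle kinases, rose by 1.14 from 8.62, 5.82 and 8.12 to 15.1, 15.5 and 19.1 CPM (adjusted p = 0.018; adjusted p = 0.061 to 0.077 without starved library 2 or DMA library 3). With solvent CDC25A measured 44.6, 15.9 and 20.9 CPM; solvent library 2 lay among the DMA values.

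CCNE2, a cyclin of S phase entry, measured 4.75, 2.59 and 5.27 CPM starved, 2.46, 3.04 and 3.37 with DMA and 41.8, 8.04 and 12.6 with solvent. The starved and DMA libraries overlapped (-0.49, adjusted p = 0.52), and all solvent libraries were above them. The difference between DMA and solvent was -2.81 (95% interval -3.94 to -1.68; adjusted p = 0.023), and -1.80 without solvent library 1 (adjusted p = 0.053 to 0.12 without solvent library 1 or DMA library 1, 2 or 3). CCNE2 is uncertain owing to exon overlap (37.1%) with other genes, INTS8 among them. E2F2 measured 1.10, 1.17 and 1.28 starved, 0.954, 1.03 and 0.665 with DMA and 10.1, 1.83 and 3.52 with solvent, a difference of -2.55 (adjusted p = 0.039) or -1.59 without solvent library 1 (adjusted p = 0.067 to 0.17 without solvent library 1 or DMA library 1, 2 or 3). CCNE1 was not called with DMA (0.05, adjusted p = 0.94) and rose with solvent (1.32), and its difference of -1.28 passed with the block (adjusted p = 0.029), not without it (adjusted p = 0.08). Of 28 mitosis genes 1 rose and 0 fell with DMA (2 and 2 with the block), a share under the background of 26.9%. The riser was AURKA (0.93), a mitotic kinase. Falls of mitosis genes numbered 1 without starved library 3 and 2 without DMA library 1.

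The promoters of these genes were searched for E2F sites. The letters TTTCCCGC or TTTGGCGC, on either strand, were in 17 of 30 DNA replication promoters (56.7%) and in 5 of 17 promoters of G1 regulators (29.4%). They were in 2.31% of all promoters in the RefSeq table and in 3.57% of the 11346 promoters of genes tested. Windows are shown for 3 genes that moved in different ways with DMA: CDC25A, which rose, E2F1, which fell, and CLSPN, which was not called against starved cells. Capitals mark the site, which starts at -44, -20 and -5 from the RefSeq start, in CLSPN as the reverse complement.
CDC25A (chr3:48188424-48188491, minus strand): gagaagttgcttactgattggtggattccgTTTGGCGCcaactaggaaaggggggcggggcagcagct
E2F1 (chr20:33686368-33686435, minus strand): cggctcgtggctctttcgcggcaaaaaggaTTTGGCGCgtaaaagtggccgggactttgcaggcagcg
CLSPN (chr1:35769946-35770013, minus strand): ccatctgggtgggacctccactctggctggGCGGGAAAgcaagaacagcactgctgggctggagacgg

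**Figure D4:**
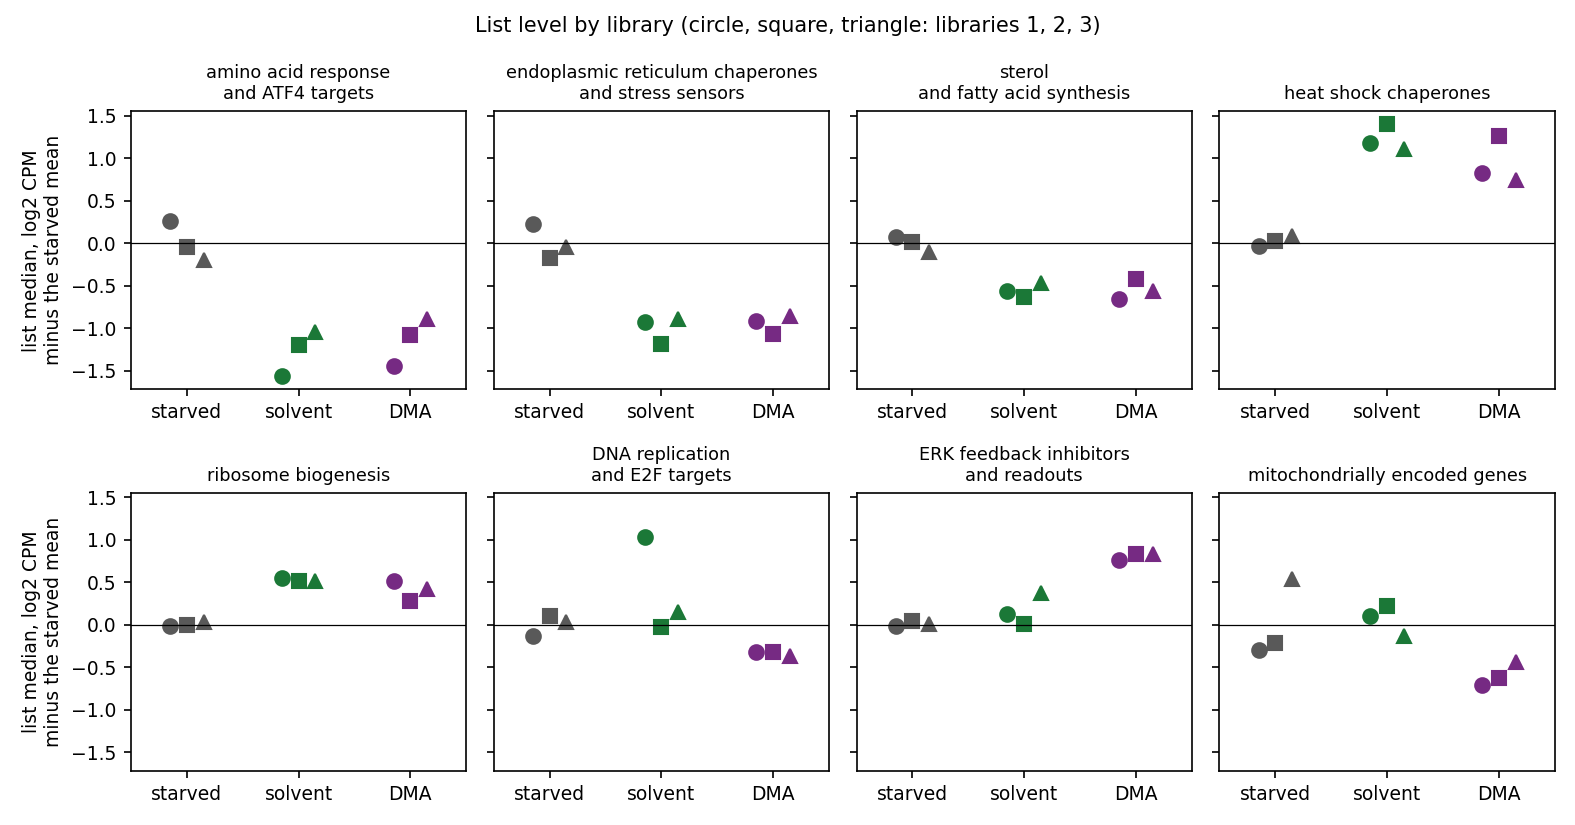
Median member of 8 gene lists in each library, as log2 CPM minus the gene's mean over the starved libraries (vertical axis), for starved, solvent and DMA libraries. In DNA replication genes the DMA libraries lie at -0.32, -0.33 and -0.37 and solvent library 1 at 1.03, and in mitochondrially encoded genes starved library 3 lies at 0.54, all relative to the bulk of genes; with spike-in scaling the medians of these lists and of sterol genes in DMA against starved are above 0.

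Transcripts of the mitochondrial genome were lower with DMA, and starved library 3 stood apart from the other starved libraries. Of 13 mitochondrially encoded genes 8 fell and 0 rose with DMA (median -0.69; 0.12 with spike-in scaling), and none was called with solvent (median -0.02). All transcripts assigned to the mitochondrial genome took 4.14% of the counts in starved library 3, with spike-ins in the total. This share was 2.39% and 2.49% in starved libraries 1 and 2, 1.67% to 2.38% with DMA and 2.48% to 3.24% with solvent. Of the 13 genes, 1 fell when starved library 3 was left out, 2 when DMA library 1 was, and 3 when DMA library 2 was. MT-ND4, a complex I subunit, measured 3747, 4618 and 7582 CPM starved, 2060.0, 2872 and 3057 with DMA and 4425, 4935 and 3464 with solvent, a fall of 1.00 with DMA, and a change of -0.65 without starved library 3. MT-ND4 is uncertain, as 21.2% of its 31-base stretches are found in other genes. Against solvent 2 members were lower with DMA (background of lower calls 1.02%) and 5 under the replicate block (background 5.46%), with a median of -0.67. The 2 were MT-CYB of complex III and MT-ND3 of complex I. MT-CYB differed by -0.87 (adjusted p = 0.044, or 0.061 to 0.17 without solvent library 1 or 2 or DMA library 1, 2 or 3). MT-ND3 differed by -0.67 (adjusted p = 0.035, or 0.071 to 0.14 without solvent library 1 or 2 or DMA library 1 or 2). Against starved cells MT-CYB fell by 0.69 (0.12 with spike-in scaling; -0.42 without starved library 3; adjusted p = 0.053 to 0.096 without starved library 3 or DMA library 1 or 2) and MT-ND3 by 0.42 (0.39 with spike-in scaling; -0.27 without starved library 3; adjusted p = 0.099 to 0.17 without starved library 3 or DMA library 1 or 2).

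Of 30 nuclear genes of the same respiratory complexes 5 rose, a share near the background of 13.9%, and 0 fell (median 0.18). With the block 6 rose and 1 fell. Rises numbered 0 without starved library 1 or 2, 1 without DMA library 1, 3 without DMA library 3 and 11 without starved library 3, and falls numbered 1 without starved library 1. Cytosolic ribosomal protein genes gave 0 calls among 30 in DMA against starved, with 1 at an unadjusted p under 0.05 in edgeR. With the block 0 of them rose and 1 fell. In all 30 the interval of the DMA minus solvent difference lay within -1 to 1. No member of these lists differed between DMA and solvent, with or without the block. The background of calls was 1.75% without the block, and 4.76% higher and 5.46% lower with it. For the nuclear respiratory genes, at an unadjusted p under 0.05 edgeR gave 3 members, and DESeq2 with adjustment called 0 higher and 0 lower.

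Among genes of acid and bicarbonate transport, the process that DMA acts on, rises with DMA were under the background and falls above it. Of 27 tested 2 rose (background 13.9%) and 8 fell (background 13.0%) with DMA (median -0.22, or 0.57 with spike-in scaling). With solvent 2 rose and 4 fell (median -0.16). Falls with DMA against starved numbered 4 without starved library 2 and 5 without starved library 3. SLC9A5, a Na+/H+ exchanger, rose by 1.12 from 5.54, 4.23 and 3.99 to 8.78, 8.71 and 12.6 CPM. ATP1B1, a subunit of the sodium pump, rose by 1.13 from 41.7, 33.0 and 40.2 to 77.7, 83.8 and 90.2 CPM. SLC16A7, a monocarboxylate carrier, fell by 1.18. SLC4A4, a sodium bicarbonate cotransporter, measured 6.33, 9.58 and 18.9 starved and 7.18, 5.09 and 5.84 with DMA, a fall of 0.93, and a change of -0.40 without starved library 3 (adjusted p = 0.055 to 0.25 without starved library 2 or 3 or DMA library 2 or 3). None of the 27 differed between DMA and solvent (background 1.75%), with 1 higher and 1 lower under the block (backgrounds 4.76% and 5.46%). Counts this small lie near the background. At an unadjusted p under 0.05 edgeR gave 6 members, and DESeq2 with adjustment called 0 higher and 3 lower.

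Of 23 genes in the BMP and TGF-beta feedback list 9 rose and 0 fell with DMA (median 0.42), and 4 rose and 1 fell with solvent. With the block 12 rose and 2 fell with DMA. Without starved library 1 or 2 or DMA library 2, 6 rose with DMA. ID3, which blocks DNA binding by helix-loop-helix proteins (chromosome 1, 23557918 to 23559794), measured 4.09, 5.19 and 5.27 CPM starved, 65.7, 64.5 and 88.4 with DMA and 28.2, 36.1 and 51.5 with solvent, in groups without overlap. ID3 rose by 3.91 with DMA (adjusted p = 1.5e-06), by 3.00 with solvent, and differed by 0.92 (adjusted p = 0.045; adjusted p = 0.053 to 0.17 without solvent library 1 or 2 or DMA library 1, 2 or 3). ID1 of the same family rose by 2.65 from 2.68, 2.18 and 1.57 to 9.64, 16.3 and 14.96 CPM. ID3 was the list member that differed from solvent, or 5 members higher with the block (background of higher calls 4.76%). Among cytokines and NF-kappaB feedback genes 9 of 23 rose and 0 fell with DMA (median 0.52), and 9 rose with solvent. Falls numbered 1 without starved library 3. IL7R, the interleukin-7 receptor, rose by 3.67 from 3.26, 0.753 and 1.28 to 37.0, 22.9 and 8.503 CPM.

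Actin and SRF targets gave 8 rises and 1 fall among 26 with DMA (13 rises with the block), and 10 rises with solvent. Falls numbered 0 without starved library 1 or 3 or DMA library 2 or 3. SMTN, smoothelin, rose by 1.93 from 42.5, 67.5 and 31.4 to 250.9, 152 and 137 CPM. Of 23 YAP and TEAD targets 3 rose and 1 fell, a share under the background; 5 rose and 4 fell with the block. Falls numbered 0 without starved library 1 or 2 or DMA library 2 or 3 and 2 without DMA library 1. In the circadian clock 6 of 17 fell and 0 rose (median -0.70; 0.07 with spike-in scaling; 10 falls with the block), among them the repressors NR1D2 (fall of 2.17) and NR1D1 (fall of 1.85). NR1D2 measured 142, 161 and 156 CPM starved, 26.6, 42.7 and 32.6 with DMA and 36.1, 36.3 and 35.2 with solvent, far apart from the starved level in both refed groups. Among matrix and integrin genes 4 of 23 rose and 3 fell, a share near the background of 26.9%, and 6 rose and 4 fell with the block. ITGA5, the fibronectin receptor subunit, rose by 1.09 from 375, 369 and 359 to 855, 790.0 and 694 CPM. Of the falls, the log2 change was -1.93 for COL1A1 and -0.72 for LOX (0.11 with spike-in scaling). Falls of matrix and integrin genes numbered 0 without starved library 1 or DMA library 3 and 1 without DMA library 2.

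Of 30 genes for histone acetylation enzymes and readers 3 rose and 10 fell with DMA (median -0.02; 0.77 with spike-in scaling), and 1 rose and 14 fell with solvent (median -0.39). EP300, the acetyltransferase p300, measured 104, 119.8 and 101 CPM starved, 125, 125 and 109 with DMA and 67.7, 81.5 and 82.9 with solvent. Starved and DMA libraries overlapped and all solvent libraries were lower. EP300 was not called with DMA (0.14, adjusted p = 0.41), fell with solvent by 0.49, and differed by 0.63 (adjusted p = 0.023; adjusted p = 0.058 to 0.12 without solvent library 1 or 2 or DMA library 2). It was the list member that differed, and 6 were higher with DMA under the block (background of higher calls 4.76%). Rises with DMA against starved numbered 0 without starved library 3 or DMA library 1 and 1 without starved library 1 or 2 or DMA library 3, and falls with DMA against starved numbered 6 without starved library 2.

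The largest rises with DMA included genes of secreted and matrix proteins. ESM1, a secreted proteoglycan, rose by 4.63 ± 0.89 from 2.90, 0.711 and 1.78 to 89.9, 19.3 and 24.2 CPM (adjusted p = 0.0028), with library 1 the highest in each refed group. ANGPTL4, a secreted inhibitor of lipoprotein lipase and a PPAR target, rose by 4.20 from 1.63, 1.17 and 3.92 to 55.0, 15.5 and 45.8 CPM, beside 34.4, 20.2 and 65.7 with solvent. COL6A3, a collagen VI chain, measured 13.6, 6.11 and 7.41 starved, 89.7, 130.4 and 88.3 with DMA and 37.4, 49.7 and 35.0 with solvent, in groups without overlap. It rose by 3.50 with DMA, and differed from solvent by 1.34 (adjusted p = 0.044; adjusted p = 0.053 to 0.18 without solvent library 1, 2 or 3 or DMA library 1, 2 or 3). METTL7B rose by 4.62, the semaphorin receptor PLXNA2 by 3.39 and the giant muscle protein NEB by 3.22. IFITM10 (3.97) and KRTAP2-3 (3.39) also rose and are uncertain, through 22.2% exon overlap and 43.3% shared sequence.

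Among the largest falls outside the stress lists, ADAMTS15, a secreted protease of the matrix, measured 34.2, 25.4 and 38.8 CPM starved, 2.26, 1.03 and 1.38 with DMA and 8.53, 4.21 and 8.58 with solvent, in groups without overlap. ADAMTS15 fell by 4.40 with DMA and by 2.20 with solvent, a difference of -2.20 (adjusted p = 0.015; adjusted p = 0.063 to 0.076 without solvent library 1 or DMA library 2). LURAP1L fell by 3.42 from 71.9, 53.9 and 58.3 to 4.17, 7.24 and 5.80 CPM, the small GTPase RAB39B by 3.42 and PIGA, which starts the synthesis of membrane anchors, by 2.83.

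A further set of genes was called in DMA against starved and in DMA against solvent but not in solvent against starved, a choice that fixes both differences. Among its rises were DUSP5 and SPRY1, described above, TMEM217 (2.27 against starved), the RNA-binding protein RBM38 (1.89) and the cholesterol-esterifying enzyme LCAT (1.57). RBM38 measured 6.95, 6.86 and 5.20 CPM starved, 6.39, 8.20 and 14.5 with solvent and 19.6, 23.5 and 28.0 with DMA. Among its falls, AP3M2, a subunit of the vesicle adaptor AP-3, measured 37.0, 35.1 and 36.9 starved, 43.1, 35.6 and 27.6 with solvent and 13.8, 11.6 and 10.2 with DMA, so that of these 3 groups the DMA libraries lay below the others. SHISA2 fell by 1.55 and MPHOSPH9, a centrosomal protein, by 1.37. ASB16-AS1 (-1.36) and SFT2D3 (-1.35) fell too and are uncertain, with 31.1% and 100.0% of their exons overlapping genes on the other strand. RN7SL2, a signal recognition particle RNA, measured 15.4, 15.3 and 15.6 starved, 19.2, 16.1 and 23.9 with solvent and 242, 144 and 22.4 with DMA, so its rise rested on DMA libraries 1 and 2. It is uncertain since 94.8% of its sequence occurs in other genes.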

How the data were processed

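Total RNA of RPE-1 cells was made into 12 libraries of 4 groups with the TruSeq Stranded mRNA kit, per the labels' protocols. The authors deposited expected counts and TPM per transcript, per the file headers; TPM was used here as a description only. Trimmomatic 0.36, STAR 2.7.0e and build GRCh38.p10 are named in the submitters' processing notes, while quantifier, annotation and strandedness of counting were not given in the sources used here. Expected counts were summed per gene through GENCODE 29 and rounded to whole numbers. The design had assumed whole counts, and the rounded values took the same test. The 92 spike-in controls, whose identity and amount are not given, and 264 unmatched transcripts stayed out of tests.

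Low genes were removed (filterByExpr, count 10 and total 15), and the rest were scaled by the trimmed mean of M-values and tested with edgeR 4.0.16 (R 4.3.3, limma 3.58.1), quasi-likelihood and robust, in 1 fit over all 12 libraries. The C646 group, refed with 10 µM of an acetyltransferase inhibitor, served only to share the spread estimate. P-values were adjusted by Benjamini and Hochberg over all genes tested. DESeq2 1.42.0, other scalings and filters, a replicate block and leaving out single libraries were the alternatives. The fit was tested on simulated data.

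Same-numbered libraries deviated together, with correlations of 0.128, 0.275 and 0.305 between DMA and starved and 0.331, 0.355 and 0.475 between DMA and solvent, so the numbers pair these groups. Between solvent and starved they were 0.0957, 0.33 and 0.182, which misses the limit of 0.1.

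Genes are named by a rule: the 10 largest changes per direction with DMA and the 6 largest with solvent, each past the threshold, at or above a mean of 2 log2 CPM and without overlap of the groups; by the same filter, the 6 largest per direction called in both DMA comparisons and not with solvent; up to 2 per direction and list, and up to 2 per list for the DMA minus solvent difference; and a panel of control genes. Other list members named beside a count were chosen after their values were seen. Members and lists were chosen with earlier results of these data known. The word uncertain marks genes that share more than 20% of their exons or of their 31-base stretches with another gene.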

Additional observations from a re-analysis of the deposited data

How the results depend on the processing

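In DMA against starved, 4109 genes passed. DESeq2, its size factors, other filters on low counts, the replicate block and a fit of only these groups gave counts within 1.5 times of this (3657 to 5914). Leaving out 1 library gave 3009 to 3480. Spike-in scaling gave 6574 and a log2 change of at least 1 gave 1438. In solvent against starved, 3704 passed, with 3415 under spike-in scaling (94.5% higher), 2269 to 3447 with 1 library left out and 1177 at a log2 change of at least 1. In DMA against solvent, 267 differed, against 1096 with DESeq2, 91 with spike-in scaling (93.4% higher), 455 with no filter, 1560 with the replicate block, 31 in a fit of only these groups, 87 at a log2 change of at least 1, and 1 to 286 with 1 library left out. The block with solvent library 1, DMA library 2 or DMA library 3 left out, chosen after seeing the data, gave 471, 432 and 463. The cause of these shifts was not tested. Of 137 named genes past the threshold in DMA against starved, 103 stayed past it without any 1 library and 137 with the block. Under spike-in scaling, which raises the median of all genes, the sign turned for HSPA9 (0.21), GNL3 (0.37), EIF1 (0.12), MTHFD1L (0.22), ADSS2 (0.28), ATIC (0.43), ETV5 (0.15), CDKN1B (0.067), AJUBA (0.21), FHL2 (0.19), MT-CYB (0.12), MT-ND3 (0.39), LOX (0.11), TJP1 (0.39) and ASNS (0.36). With 3 libraries a group, differences between DMA and solvent smaller than about the intervals given are not resolved, and genes under 3 counts are not detectable at this depth.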

Other observations

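RN7SL2, RN7SK and RMRP, chosen after their values were seen, were higher in DMA libraries 1 and 2 than in DMA library 3. RN7SL2 measured 242, 144 and 22.4 CPM in DMA libraries 1 to 3. RN7SK, a regulator of transcription elongation, measured 107, 90.7 and 12.2 CPM with DMA and 9.16 to 12.8 CPM in starved libraries. RMRP, the RNA of a processing ribonuclease, measured 23.3, 16.1 and 1.52 CPM with DMA.

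By gene type, 28.5% of 13073 protein-coding genes, 18.9% of 804 lincRNAs and 15.6% of 806 antisense genes were called in DMA against starved. Among protein-coding genes, the median span was 26.7 kb for those that rose, 47.0 kb for those that fell and 33.8 kb for those not called.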
